A study of Homo sapiens with 3 samples.

Results

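The genes described here are the coactivators of the estrogen-related receptors (ERRs) and the enzymes of fatty acid oxidation that these receptors are known to act on. There were 10 of them among the 17448 genes measured, chosen by name: the coactivators PPARGC1A, PPARGC1B and PPRC1, the carnitine palmitoyltransferases CPT1A and CPT2, the acyl-CoA dehydrogenases ACADVL and ACADM, the trifunctional protein subunits HADHA and HADHB, and the kinase PDK4. RNA came from H128, an established human small cell lung cancer (SCLC) cell line, grown in RPMI1640 with serum and sequenced 48 h after transfection with the lipid reagent Dharmafectin. The 3 libraries were labelled siCont (a control siRNA), siERRG2 and siERRG3 (siRNAs against ESRRG, which encodes ERRγ), with 1 library for each. The labels and the methods do not settle which of the study's numbered ESRRG siRNAs each of the latter received, and all 3 libraries share the same cell line, reagent and time.

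As background, the ERRs are orphan nuclear receptors that bind DNA without a known natural hormone, and they depend on coactivators of the PGC-1 family to switch genes on. PGC-1 proteins do not bind DNA themselves; they dock on nuclear receptors and on factors such as NRF1 and recruit acetyltransferases and the Mediator complex. In heart, muscle and brown fat this pairing drives the genes of mitochondrial fatty acid oxidation. In that pathway CPT1 enzymes load long-chain fatty acids onto carnitine at the outer mitochondrial membrane, CPT2 takes them off again inside, acyl-CoA dehydrogenases carry out the first oxidation step, and the trifunctional protein completes the cycle for long chains. PDK4 phosphorylates pyruvate dehydrogenase and so turns the cell from glucose towards fat.

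With 1 library per condition there was no replicate check and no test of a difference between conditions. Differences are therefore given as log2 fold changes of counts scaled to a common library size, and each ratio of scaled counts is followed by its 95% exact interval (Clopper-Pearson), which covers counting error only and compares libraries, not conditions. Calls of lower or higher were made at 1.2-fold, the threshold of the study's methods. Both comparisons use the same siCont library and are not independent. In bulk RNA, fewer cells of a kind and less RNA per cell cannot be told apart.

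The library totals lay between 19861937 and 20016780 counts, and the 14031 genes that reached 10 counts somewhere were kept. ESRRG itself had 806 counts with siCont, 211 with siERRG2 and 230 with siERRG3. These are ratios of 0.26 (0.22 to 0.30) for siERRG2 and 0.28 (0.24 to 0.33) for siERRG3, so both libraries match their labels. The other widely expressed receptor of the family, ESRRA, had 1184, 1270 and 1169 counts, with ratios whose intervals included 1 in both libraries. ESRRB had 4, 2 and 3 counts and was not kept. Per length, ESRRG made up 22.1% of the expression of the 3 ERR genes with siCont, 6.49% with siERRG2 and 7.51% with siERRG3, the rest being almost wholly ESRRA. Of the markers, those of neuroendocrine and epithelial cells summed to 35176, 29708 and 38297 counts in siCont, siERRG2 and siERRG3. Among them UCHL1 had 16031, 15340 and 22326 counts, INSM1 10359, 5279 and 9168, SYP 5279, 5169 and 3779, and CHGA 3282, 3750 and 2751. Thus siERRG2 was lowest for INSM1, and siERRG3 was highest for UCHL1 and lowest for SYP and CHGA, while KRT8 had 112 to 175 counts, KRT18 had 45 to 81 and EPCAM had 13 to 18. The single markers of blood cells (PTPRC) and endothelium (PECAM1) had 20 to 29 counts in every library. The 3 fibroblast markers summed to 2232, 3031 and 2645 counts, nearly all from COL1A2, with DCN at 8 counts in each library. The part of these marker differences in the results was not tested.

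Stretches of DNA just before the start sites are shown for 3 places the values below turn on: the stretch from which HADHA and HADHB are read in opposite directions, the one before CPT2, which had the largest difference, and the one before ACADM, which was below siCont beyond counting error in both ESRRG siRNA libraries. All are the 250 bases upstream of the RefSeq start on the plus strand of GRCh38.p14, 5′ to 3′, at chr2:26244689-26244938 for HADHB, chr1:53196574-53196823 for CPT2 and chr1:75724459-75724708 for ACADM. Capitals mark GGTCA, the receptor half-site, or its reverse complement TGACC.
HADHB: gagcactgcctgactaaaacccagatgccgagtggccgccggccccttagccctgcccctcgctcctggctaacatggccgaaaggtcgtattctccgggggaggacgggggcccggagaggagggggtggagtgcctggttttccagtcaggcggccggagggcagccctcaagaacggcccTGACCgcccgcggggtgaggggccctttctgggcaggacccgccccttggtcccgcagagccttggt
CPT2: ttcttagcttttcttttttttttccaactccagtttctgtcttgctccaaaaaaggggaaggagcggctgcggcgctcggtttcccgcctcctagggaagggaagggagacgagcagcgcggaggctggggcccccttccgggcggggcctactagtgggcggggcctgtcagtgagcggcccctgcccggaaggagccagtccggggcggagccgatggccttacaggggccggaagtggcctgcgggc
ACADM: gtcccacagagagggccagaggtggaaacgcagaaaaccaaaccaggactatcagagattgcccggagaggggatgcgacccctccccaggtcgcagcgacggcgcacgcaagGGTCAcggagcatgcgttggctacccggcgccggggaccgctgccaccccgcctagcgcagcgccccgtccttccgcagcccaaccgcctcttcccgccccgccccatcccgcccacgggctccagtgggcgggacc
The start sites of HADHA (26244632) and HADHB (26244939) lay 307 bases apart; their promoter windows share 194 bases, and the GGTCA of both is the same site. All 3 stretches were rich in G and C, at 69.2% for HADHB, 65.2% for CPT2 and 70.8% for ACADM, and the CPT2 stretch held no capitals.

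The full ERR response element, TCAAGGTCA, was in none of the 12 RefSeq promoters of the 10 genes (250 bases before to 50 after the start, both strands), and in 0.353% of the 35116 promoters of all genes. The looser forms TNAAGGTCA and AAGGTCA, which the full element contains, were likewise in none of the 12 and in 0.951% and 3.92% of all promoters. GGTCA alone, which the longer motifs also contain, was looked for after these results. It was in 6 of the 12 and in 37.4% of all promoters. The 6 were those of ACADM, HADHA, HADHB and PDK4, 1 of the ACADVL starts and 1 of the PPARGC1A starts. A match or its absence describes only the letters of this window.

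The enzymes of the mitochondrial matrix and inner membrane were abundant in H128, while CPT1A, PPARGC1A and PDK4 were low. Levels between genes are compared on the deposited length-scaled values, which behave as FPKM, that is, counts divided by transcript length and library size. The length implied by counts and FPKM was not the same in every library for all genes. HADHA stood at 102.22 FPKM in siCont, above 94.6% of the genes kept, followed by ACADM at 52.49, HADHB at 44.19, ACADVL at 29.36, PPRC1 at 20.88 and CPT2 at 17.91. PPARGC1B at 3.22, CPT1A at 1.33 and PPARGC1A at 1.17 came next, and PDK4 was last at 0.01. Over the 3 libraries the ranges of ACADM and HADHB overlapped, and so did those of CPT1A and PPARGC1A. Each of these pairs traded places, the first in siERRG2 and the second in siERRG2 and siERRG3, and the other places in the order were the same in all 3 libraries.

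**Figure D1:**
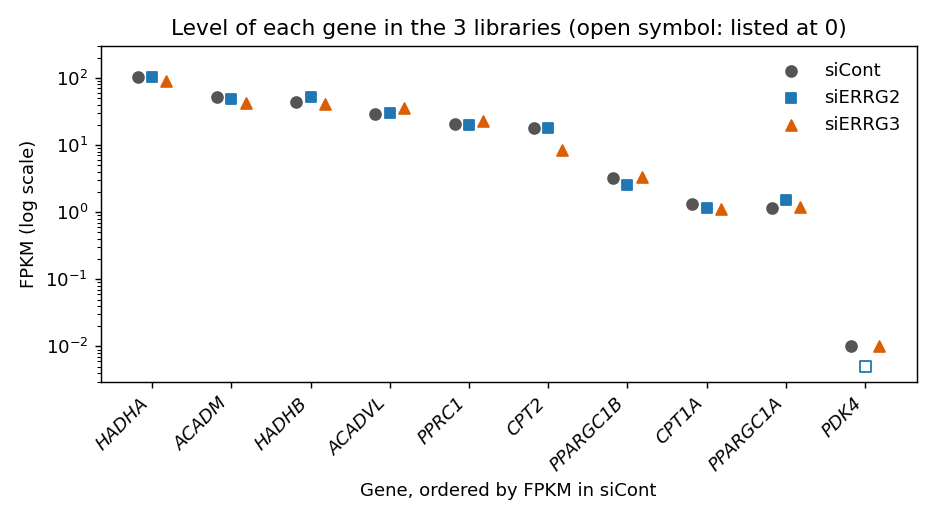
Length-scaled level of the 10 genes in FPKM (log axis), ordered by siCont, with 1 point per library (circle siCont, square siERRG2, triangle siERRG3, open symbol a value listed at 0). HADHA lay near 100 FPKM and PDK4 at 0.01 or 0, and CPT2 is the gene whose siERRG3 point (8.32 FPKM) stands clear of its other points.

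Among the coactivators, PPARGC1A lay above siCont and PPARGC1B below it in siERRG2, beyond counting error. In siERRG3 the intervals of both genes included 1. Gene numbers and extents are those of the deposited table (GRCh38), and an extent spans all transcripts listed for the gene. PPARGC1A (gene 10891, chr4:23792021-24524867), which encodes PGC-1α, the inducible coactivator of oxidative tissue, had 149 counts with siCont, 192 with siERRG2 and 133 with siERRG3. It was highest in siERRG2, with a log2 fold change of 0.35 and a ratio of 1.27 (1.02 to 1.59) whose interval reaches nearly to 1. In siERRG3 its log2 fold change was -0.19, and the interval, 0.69 to 1.12, included 1. These counts were not whole numbers as deposited (149.48, 191.93 and 133.42), so they are estimates rather than whole reads. The FPKM, 1.17, 1.52 and 1.18, put siERRG3 level with siCont instead, at a log2 difference of 0.01 with a pseudocount of 0.1. The listed extent of PPARGC1A overlaps that of DHX15, which had 6226 counts with siCont, 6039 with siERRG2 and 5767 with siERRG3.

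PPARGC1B (gene 133522, chr5:149683383-149861432), which encodes PGC-1β, had 687 counts with siCont, 536 with siERRG2 and 719 with siERRG3. It was lower than siCont in siERRG2 alone, by a log2 fold change of -0.37 and a ratio of 0.77 (0.69 to 0.86), and in siERRG3 the ratio was 1.03 (0.93 to 1.14). PPRC1 (gene 23082, chr10:102102480-102163871), the PGC-1-related coactivator linked to cell growth, had 2199, 2115 and 2390 counts. Its ratios were 0.95 (0.90 to 1.01) in siERRG2 and 1.07 (1.01 to 1.13) in siERRG3, both within 1.2-fold of siCont. PPRC1 was the most expressed of the family per length in every library, with 82.6% of the summed FPKM of the 3 coactivators with siCont, 83.3% with siERRG2 and 83.4% with siERRG3. PPARGC1A took 4.63%, 6.29% and 4.35%. In the table's extents PPRC1 overlaps NOLC1, a nucleolar protein gene with 10052, 10919 and 11958 counts, whose intervals lay above 1 in both ESRRG siRNA libraries. It also overlaps LDB1, a LIM-domain-binding cofactor gene with 2991, 2809 and 2704 counts, whose intervals lay below 1 in both.

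In the carnitine shuttle, CPT2 differed by the most of the 9 genes kept, and it did so in siERRG3 only. CPT2 (gene 1376, chr1:53196209-53220639), the carnitine palmitoyltransferase of the inner membrane, had 1103 counts with siCont, 1109 with siERRG2 and 514 with siERRG3. The siCont and siERRG2 libraries gave nearly the same value, with a ratio of 0.99 (0.91 to 1.08). In siERRG3 the log2 fold change was -1.12 and the ratio 0.46 (0.41 to 0.51), and set directly against siERRG2 the ratio was 0.46 (0.41 to 0.51). The FPKM, 17.91, 17.96 and 8.32, gave the same picture. In the table's extents CPT2 overlaps the lipoprotein receptor gene LRP8, C1orf123, GLIS1 and the uncharacterised gene 105373132, which together had 2727, 1887 and 1858 counts. LRP8, with most of these, had 2147, 1462 and 1376 counts and was thus lower in both ESRRG siRNA libraries, while CPT2 was lower in siERRG3. The listed extents of 105373132, at 228425067 bases, and GLIS1, at 546577 bases, reach far beyond CPT2. That of 105373132 overlaps ACADM as well, so such an overlap need not mean a close neighbour.

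CPT1A (gene 1374, chr11:68696969-68874548), the liver form of the outer-membrane enzyme and the step that malonyl-CoA inhibits, had 140 counts with siCont, 123 with siERRG2 and 117 with siERRG3. The log2 fold changes were -0.20 and -0.28, and the intervals, 0.68 to 1.11 and 0.64 to 1.06, both included 1, so a difference was not detectable at this depth. CPT1C, the brain form with little known activity in oxidation, was the main CPT1 gene of these cells per length, at 16.79, 14.33 and 15.07 FPKM. It made up 80.8% of the summed FPKM of the 3 CPT1 genes with siCont, 82.5% with siERRG2 and 81.5% with siERRG3. CPT1A made up 6.40%, 6.68% and 5.95%, and CPT1B, the muscle form, the remainder with 2.66, 1.87 and 2.33 FPKM.

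**Figure D2:**
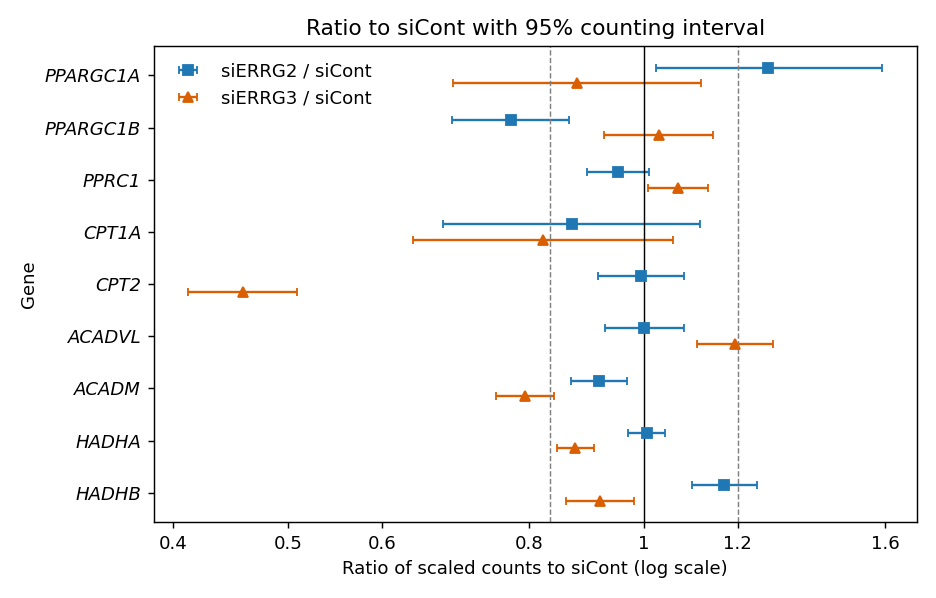
Ratio of scaled counts to siCont (log axis) for the 9 genes kept, with squares for siERRG2 and triangles for siERRG3. Bars are 95% counting intervals, the solid line is a ratio of 1 and the dashed lines are 1.2-fold lower and higher; CPT2 in siERRG3, at 0.46, lies farthest from 1, and no gene is past the same dashed line in both libraries.

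Of the acyl-CoA dehydrogenases, ACADM was below siCont and ACADVL above it in siERRG3. ACADM (gene 34, chr1:75724347-75763679), the medium-chain enzyme, had 2745 counts with siCont, 2542 with siERRG2 and 2214 with siERRG3. Both ESRRG siRNA libraries were below siCont, with ratios of 0.92 (0.87 to 0.97) and 0.79 (0.75 to 0.84), of which the second alone passed 1.2-fold. Of the 9 genes kept, ACADM was the only gene whose interval lay on the same side of 1 in both libraries. The share of all genes that did so was not computed. In single libraries, the interval lay below 1 for 26.3% of genes averaging 100 counts or more in siERRG2 and 34.9% in siERRG3. Its overlapping neighbour RABGGTB, a Rab prenylation gene, had 1783, 2347 and 1607 counts and so was higher in siERRG2, unlike ACADM.

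ACADVL (gene 37, chr17:7189892-7225267), the very-long-chain enzyme, had 1317 counts with siCont, 1333 with siERRG2 and 1598 with siERRG3. In siERRG2 the ratio was 1.001 (0.93 to 1.08). In siERRG3 the ratio was 1.19 (1.11 to 1.28) at a log2 fold change of 0.25, just inside the 1.2-fold threshold of 0.263, and it is called or not called with small changes of scaling. ACADM made up 50.9% of the summed FPKM of ACADM, ACADVL, ACADL, ACADS and ACAD9 with siCont, 47.0% with siERRG2 and 43.6% with siERRG3. ACADVL made up 28.5%, 29.5% and 36.9%. The long-chain gene ACADL, with up to 1.95 FPKM, and the short-chain gene ACADS, with up to 1.79 FPKM, were low in every library. The listed extent of ACADVL overlaps those of DVL2, DLG4 and ELP5, which together had 2954, 3023 and 3241 counts. In siERRG3 the interval of ELP5, 1.04 to 1.21, lay above 1, and those of DVL2 and DLG4 included 1.

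The subunits of the trifunctional protein are made from neighbouring genes in a shared complex, and the share of HADHB in their counts was not the same in all libraries. HADHA (gene 3030, chr2:26188884-26290582), the α subunit with the hydratase and dehydrogenase activities, had 6203 counts with siCont, 6305 with siERRG2 and 5519 with siERRG3. HADHB (gene 3032, chr2:26173081-26290465), the β subunit with the thiolase activity, had 1829, 2163 and 1708. In siERRG2 HADHA was level with siCont, at a ratio of 1.005 (0.97 to 1.04), and HADHB was higher at 1.17 (1.10 to 1.24). In siERRG3 both were slightly lower, at 0.87 (0.84 to 0.91) for HADHA and 0.92 (0.86 to 0.98) for HADHB, and no value of either gene passed 1.2-fold. HADHB was thereby the 1 gene of the 9 with intervals on opposite sides of 1, as were 13.6% of all genes averaging 100 counts or more. HADHB thus made up 22.8% (21.9 to 23.7) of the counts of the pair in siCont, 25.5% (24.6 to 26.5) in siERRG2 and 23.6% (22.7 to 24.6) in siERRG3, with Clopper-Pearson intervals. The siERRG2 share lay above the siCont share with intervals that do not meet, and the interval of the siERRG3 share met both. In the table the extents of the pair overlap by 101582 bases, nearly the whole extent of HADHA. By RefSeq, however, the genes are read in opposite directions from start sites 307 bases apart. The deposited counts of both were whole numbers in every library.

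PDK4 (gene 5166, chr7:95583497-95596613) was at the limit of detection, with 1 count with siCont, 0 with siERRG2 and 1 with siERRG3. It was not kept by the filter, and since 3 counts, the level that a count of 0 allows, came to 0.151 CPM in siERRG2, no fold is given. PDK1, known as a target of the hypoxia factor HIF1, carried most of the family's FPKM at 24.98, 27.14 and 18.64, followed by PDK2 at 10.96, 10.02 and 7.86. The count of PDK2 was 517, 394 and 350, with ratios of 0.75 (0.66 to 0.86) and 0.67 (0.58 to 0.76). On the FPKM its siERRG2 log2 difference shrank from -0.41 to -0.13, so the lower value in siERRG2 rests on the counts. PDK3 stood at 4.94, 4.35 and 5.58 FPKM with 472, 508 and 426 counts, that is, with FPKM and counts in opposite directions.

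Counted against all genes, none of the 9 genes kept was called in the same direction in both ESRRG siRNA libraries. In siERRG2, 1 gene, PPARGC1B, was called lower, where 19.2% of all genes kept were, and 1, PPARGC1A, was called higher, against 16.4%. In siERRG3, ACADM, CPT1A and CPT2 were called lower, 3 of 9 against 25.1% of all genes, and none was called higher against 23.2%. The 0 genes lower in both libraries stand beside 7.88% of all genes, and the 0 higher in both beside 7.26%. With the added condition that the interval leave out 1 in both libraries, the counts were again 0, against 4.90% of all genes for lower and 3.27% for higher.

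By the interval alone, the 9 genes were read beside the 10573 genes that averaged 100 counts or more. In siERRG2 the interval lay below 1 for PPARGC1B and ACADM (26.3% of all genes) and above 1 for PPARGC1A and HADHB (26.5%). In siERRG3 it lay below 1 for ACADM, HADHA, HADHB and CPT2 (34.9%) and above 1 for PPRC1 and ACADVL (31.1%). The median log2 fold change of the 9 was -0.01 in siERRG2 and -0.19 in siERRG3, where the medians over all genes kept were -0.00038 and -0.0033. They ranged from -0.37 to 0.35 in siERRG2 and from -1.12 to 0.25 in siERRG3.

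The ESRRG siRNA libraries differed from each other at most of the 9 genes. Set directly side by side, siERRG3 lay below siERRG2 beyond counting error at PPARGC1A, with a ratio of 0.69 (0.55 to 0.86), and at ACADM, HADHA, HADHB and CPT2, which makes 5 genes where 34.8% of all genes did so. It lay above at PPARGC1B, with a ratio of 1.33 (1.19 to 1.49), and at PPRC1 and ACADVL, which makes 3 where 33.1% of all genes did. CPT1A alone had an interval that included 1, at 0.95 (0.73 to 1.23). ESRRG had a ratio of 1.08 (0.90 to 1.31) between the same libraries, so its own counts did not differ beyond counting error.

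The wider pathway was read from 8 lists of 118 genes chosen by role, of which 111 were kept. Of these, 19 (17.1%) were called lower and 9 (8.11%) higher in siERRG2, and 30 (27.0%) lower and 14 (12.6%) higher in siERRG3. In both libraries 7 (6.31%) were called lower and 2 (1.80%) higher. At 1.2-fold the shares lower were close to those of all genes given above, and the shares higher were below them. Of these genes, 99 averaged 100 counts or more. In siERRG2 the interval lay below 1 for 25 of the 99 and above 1 for 18, against 26.3% and 26.5% of all genes at that depth. In siERRG3 it lay below 1 for 44 and above 1 for 17, against 34.9% and 31.1%. The difference from all genes was not tested.

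In mitochondrial β-oxidation and the carnitine shuttle beyond the genes above, 22 were kept, and none was called in the same direction in both libraries. There were 4 called lower and 3 higher in siERRG2 and 5 lower and 3 higher in siERRG3, with median log2 fold changes of -0.03 and -0.15. For this list and those below, the shares over all genes kept were 19.2% lower and 16.4% higher in siERRG2. They were 25.1% and 23.2% in siERRG3, and 7.88% and 7.26% in both libraries. HSD17B10, a dehydrogenase of branched-chain and fatty acid breakdown and the most counted of the list, had 3510, 4305 and 3861 counts and log2 differences of 0.28 and 0.11. Of 15 peroxisomal genes, which shorten very long chains, 2 were called lower and 0 higher in siERRG2 and 5 lower and 1 higher in siERRG3, and CROT, with 63, 51 and 45 counts, in both with intervals that included 1. HSD17B4, the peroxisomal multifunctional enzyme, had 2109, 2030 and 2184 counts.

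Of 13 genes of fatty acid uptake and activation, 11 were kept, with 3 lower and 3 higher in siERRG2 and 4 lower and 3 higher in siERRG3. SLC27A1 and ACSL6 were called lower in both and FABP5 and SLC27A2 higher in both, all with under 100 counts in each library, and none had an interval leaving out 1 in both. FABP3, the heart fatty acid-binding protein, was the most counted gene of the list at 17216, 22093 and 14341 counts. It was above siCont in siERRG2, at a log2 fold change of 0.34, and below it in siERRG3, at -0.29. Among 10 genes of malonyl-CoA and AMPK, which set CPT1 activity, 1 was lower and 1 higher in siERRG2 and 3 lower and 1 higher in siERRG3. ACACA, the maker of malonyl-CoA, had 5236, 4763 and 4917 counts, within 1.2-fold in both.

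Of 13 genes of the pyruvate dehydrogenase switch, 2 were called lower in siERRG2, and 2 lower and 1 higher in siERRG3, and PDK2, described above, was the gene called lower in both. The list of PGC-1 partner receptors and factors had 20 genes kept, among them mitochondrial transcription factor genes, which are not docking partners. Of the 20, 4 were lower and 1 higher in siERRG2 and 6 lower and 1 higher in siERRG3. RXRA, the retinoid X receptor that pairs with the PPARs, had 1468, 1011 and 1196 counts, with ratios of 0.68 (0.63 to 0.74) and 0.80 (0.74 to 0.87). THRA, a thyroid hormone receptor, had 743, 614 and 592 counts, with ratios of 0.82 (0.73 to 0.91) and 0.78 (0.70 to 0.87). PPARA, the fatty acid-sensing receptor of liver, was called lower in both too at 104, 77 and 86 counts, but its siERRG3 interval, 0.60 to 1.09, included 1.

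Of 15 co-regulators and corepressors of PGC-1, 1 was lower in siERRG2, and 3 lower and 3 higher in siERRG3, with none in both. Of 5 ketone body genes, 2 were lower and 1 higher in each library. OXCT1, which lets cells burn ketone bodies, had 2887, 3017 and 4083 counts, with a log2 fold change of 0.05 in siERRG2 and 0.48 in siERRG3.

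The genes most like PPARGC1A and CPT1A in their pair of log2 fold changes were sought among the 11369 genes that averaged 50 counts or more. For PPARGC1A they were TFAP2A (distance 0.0073 on the log2 scale) and ZBTB33 (0.0075), with 142 genes within 0.1. For CPT1A they were HIVEP1 (0.0022) and GHDC (0.0037), with 296 genes within 0.1. The distance rests on 2 values per gene that share siCont, so many genes come this close.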

How the data were processed

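RNA of H128 cells was sequenced in 3 libraries, 1 per condition. The labels describe paired-end libraries from a directional kit, whereas the methods name a single-end system. The reads were aligned to GRCh37/hg19 by BWA and Bowtie 2 per the methods. The submitters' processing notes name GRCh38, hg19 and hg38 with TopHat2, HTSeq and DESeq2, and positions in the table follow GRCh38. HTSeq counts reads, but the notes give the tools no role, and how non-whole counts arose is not given in the sources used here. The authors deposited estimated counts (expected counts) per gene, not normalized, of which 54.0% to 54.9% were whole. The deposited expression values behave as FPKM, though the table names no unit. The authors' log2 ratios, Poisson p-values and adjusted values were not used, nor was the strand column, which gives ESRRG the opposite of its annotated strand.

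Counts were rounded and scaled by TMM (factors 0.994, 1.003 and 1.003; edgeR 4.0.16, R 4.3.3), and log2 CPM used a prior count of 2. Genes under 10 counts in every library were left out. Intervals of the count ratios were computed in R, with code that was tested on simulated counts. Those of the HADHB share were computed with SciPy 1.17.1. Promoters came from RefSeq (GRCh38.p14), with all 10 genes matched; a planned motif search in the coactivator proteins was not run. Beyond the 10, the rule named the ERR genes, markers, overlapping genes, the 2 nearest patterns and, of each list, the genes called alike in both libraries with intervals leaving out 1, otherwise the most counted; 1 result under this rule is not reported here. CROT, SLC27A1, ACSL6, FABP5, SLC27A2, PPARA and other members of the gene families were named after their values were seen. The 10 genes and the lists were chosen with earlier results of these data known. Alternatives were other scalings (total counts, upper quartile, DESeq2 1.42.0 size factors), FPKM, prior count, rounding, filters and thresholds.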

Additional observations from a re-analysis of the deposited data

Results flagged for a closer look

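Among the 10 genes and the wider lists, 8 genes had counting intervals on opposite sides of 1 in siERRG2 and siERRG3, each against the same siCont library. They are 7.41% of the 108 of these genes that averaged 100 counts or more, where 13.6% of all 10573 genes at that depth had such intervals. The difference between the libraries of the siRNAs was not tested, since each condition had 1 library. As log2 fold change in siERRG3 minus that in siERRG2, the values were -0.35 for HADHB, -0.51 for ACAD9, an acyl-CoA dehydrogenase that also assembles complex I, and -0.54 for ECI2, an enoyl-CoA isomerase. They were -0.63 for ETFA, which takes up electrons from the acyl-CoA dehydrogenases, -0.63 for FABP3, -0.54 for the transcription factor MEF2C and -1.73 for BDH2, a dehydrogenase of ketone bodies. KAT2A, an acetyltransferase that acts on PGC-1α, was the gene of the 8 with the opposite sign, at 0.30. In the order siCont, siERRG2, siERRG3, BDH2 had 122, 229 and 68 counts and ETFA had 2979, 3247 and 2115.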

How the results depend on the processing

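No paired analysis was possible because each condition had 1 library. The 162 log2 fold changes of the 9 genes under the 9 other scalings, values and filters all stayed inside their counting intervals, and the widest range was that of PPARGC1A in siERRG3, from -0.19 to 0.01. Of 88 recomputed counts of calls, 70 kept within 1.5 times the reported count and 18 did not. In siERRG2 the 1 gene called lower became 0 with FPKM and a pseudocount of 1 or at 1.5-fold, and 2 with no filter, where PDK4 at 0 against 1 count enters; the 1 called higher became 0 with the same FPKM setting or at 1.5-fold. In siERRG3 the 3 called lower became 1 at 1.5-fold, and the 0 called higher became 1 (ACADVL) with CPM from total counts, upper-quartile factors, FPKM with a pseudocount of 0.1 or 1, or a required mean of 50 counts. In the wider lists the 7 called lower in both became 2 with FPKM and a pseudocount of 1, 0 at 1.5-fold and 3 where the interval also had to leave out 1. The 2 called higher in both became 0 with that FPKM setting, at 1.5-fold or with that interval, and 1 when a mean of 50 counts was required. The number of the 9 genes called alike in both libraries was 0 throughout. Where the interval also had to leave out 1, CPT1A was no longer called in siERRG3. Nor was it called there with upper-quartile factors or with FPKM and a pseudocount of 0.1 or 1. Each of these settings left 2 genes called lower in siERRG3. Depth limits CPT1A most of the 9 genes: with 117 to 140 counts, its intervals reached from 0.64 to 1.11.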

Other observations

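The table's annotation assigns 963 genes (5.52% of those annotated) to a set with a conserved ERR1 motif near the start, of which 830 were kept. This set was looked at after the values of the 10 genes were seen. It held PPARGC1A and none of the other 9. In both ESRRG siRNA libraries 71 of its genes (8.55%) were called lower and 38 (4.58%) higher, where 7.88% and 7.26% of all genes kept were. Its median log2 fold changes were -0.02 in siERRG2 and -0.03 in siERRG3.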
